A study of Mus musculus with 2 samples.

Results

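The genes described here are 10 that mark macrophages and dendritic cells, measured in mouse T cells: the lysozyme genes Lyz1 and Lyz2, the surface receptors Cd14, Csf1r, Adgre1 and Clec7a, the integrin chain Itgax, the lysosomal glycoprotein gene Cd68, and the signalling adaptors Fcer1g and Tyrobp. They were taken by name, and every probe set (several short oligonucleotides read together for a transcript) annotated to exactly 1 of these genes was used, which gave 14 of 34945 probe sets and 10 of 18193 genes. Of the 10 genes, 8 had 1 probe set, and Lyz1 and Csf1r had 3 each.

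The study asked how exposure to retinal pigment epithelium (RPE), the pigmented layer behind the retina, alters T cells, and interleukin-17-producing helper T cells in particular. One sample held control T cells, titled as CD4 T cells, and the other T cells exposed to RPE. Both were labelled as coming from male mice of a C57 BL/6 background, 6-week-old, and no genotype, transgene or drug was named for either. For the exposed sample the tissue field names primary cultured RPE, whereas its title and source name T cells. Each group had 1 Affymetrix array, so no difference could be set against a spread between samples, no test was possible, and no p-value is given. The number of arrays limits the precision of every value.

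Myeloid cells are defined by a small set of receptors and adaptors. Fcer1g and Tyrobp (DAP12) encode short transmembrane adaptors that carry an immunoreceptor tyrosine-based activation motif (ITAM). They pair with receptors that have no signalling tail of their own and recruit the kinase Syk. Csf1r, the receptor for colony-stimulating factor 1, sustains macrophages, and Cd14 and Clec7a (Dectin-1) detect bacterial lipopolysaccharide and fungal beta-glucan. None of the genes is strictly confined to these cells: natural killer (NK) cells and basophils use Fcer1g, NK cells use Tyrobp, and activated T cells can express Itgax.

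Of the 10 genes, 8 had a lower signal in RPE-exposed than in control T cells, and most signals were low. The signals are linear intensities on which each array's median probe set stood at 15.9 (control) and 16 (exposed). A gene is called measured on an array where its signal exceeded that median, and lower signals were set to it before log2 was taken. Of the 10 genes, 8 were measured on both arrays, Lyz1 on the control array only and Adgre1 on the exposed array only. For these the fold is a bound, written as at least. The median log2 difference, exposed minus control, over the 10 genes was -0.47, against -0.01 over all 11021 genes measured on 1 array or both. A negative difference was found in 8 of 10, whereas 51.6% of all compared genes had one. A single gene, Lyz1, was at least 2-fold lower, as were 0.626% of all compared genes, and none was 2-fold higher, as were 0.436%.

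**Figure D1:**
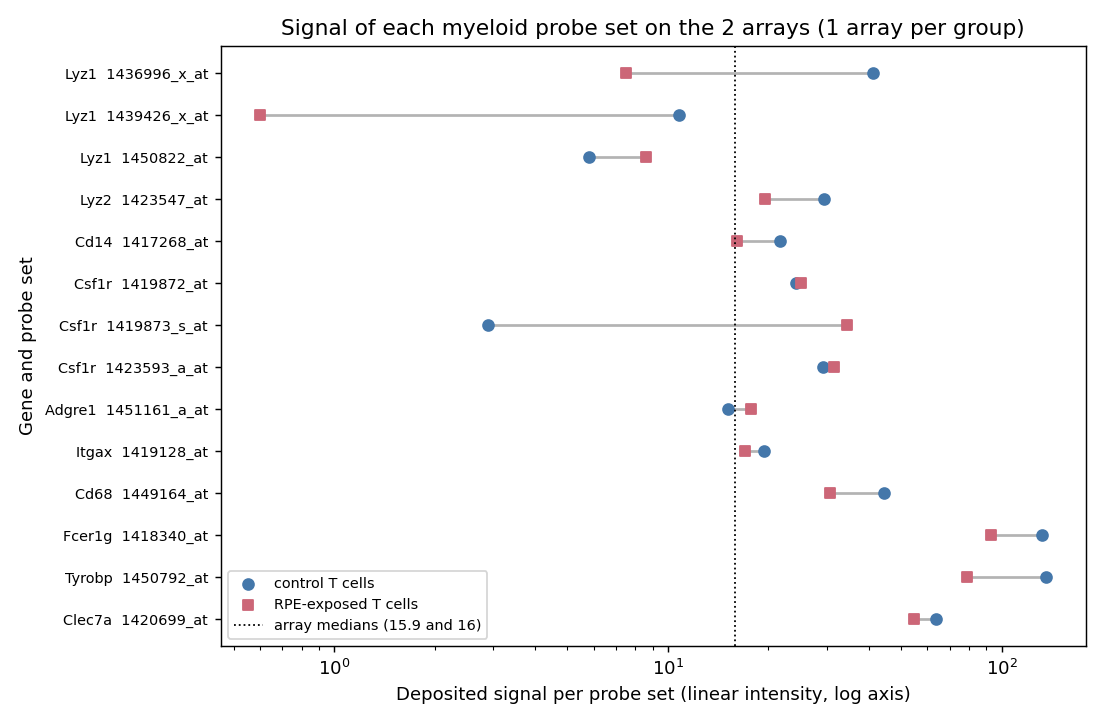
Deposited signal of each of the 14 probe sets (linear intensity on a log axis) in control (circles) and RPE-exposed T cells (squares), with the array medians as a dotted line. Tyrobp and Fcer1g stand well to the right of that line and are lower in exposed cells, most others lie within a few-fold of it, and the probe sets of Lyz1 and of Csf1r disagree among themselves.

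The ITAM adaptors gave the clearest readings. The signal of Tyrobp was 136.1 in the control sample and 79.0 in the exposed sample. It was 1.72-fold lower, a log2 difference of -0.78. To show how far a gene of similar signal varied between this pair of arrays, genes were divided into 20 groups by mean log2 level, and the central 95% of differences in a gene's group is called its like-level range. For Tyrobp this range ran from -0.65 to 0.52, and 6 of the 551 genes in its group were lower still.

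Fcer1g, the shared gamma chain of the activating Fc receptors, read 132.4 in the control sample and 93.2 in the exposed sample. The 1.42-fold lower signal (log2 difference -0.51) lay inside its like-level range of -0.59 to 0.47, with 23 of 551 genes lower still. Both adaptors were thus lower in the exposed sample, and Tyrobp, but not Fcer1g, lay outside the spread of genes of similar signal. Each rested on 1 probe set. These were also the members above each array's 75th percentile (93.1 and 90.4) on at least 1 array.

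Lyz1 and Lyz2 encode secreted lysozymes that cut the cell wall of bacteria. Lyz2 is the lysozyme of macrophages and neutrophils, and Lyz1 is known chiefly from Paneth cells of the gut. Lyz2 read 29.4 in the control sample and 19.5 in the exposed sample, 1.51-fold lower (-0.59, like-level range -0.91 to 0.89). The brightest Lyz1 probe set, 1436996_x_at, read 41.3 in the control sample and 7.5 in the exposed sample. Since the exposed value was under the array median, Lyz1 is given as at least 2.58-fold lower, beyond a like-level range of -1.09 to 1.08. A gene measured on the control array only takes the lowest difference that its mean level allows. Lying beyond the range therefore followed from the exposed value being under the median, and adds nothing to it.

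The other Lyz1 probe sets did not give that difference. Probe set 1439426_x_at read 10.8 and 0.6, and 1450822_at read 5.8 and 8.6, in control and exposed cells. Neither was measured on either array, and the second had its higher signal in exposed cells. The suffix x marks probes that also match other sequences, and both Lyz1 probe sets with a higher control signal carry it. With all 3 probe sets averaged the Lyz1 log2 difference was -0.45, and with only probe sets that lack the suffixes x, s and a, Lyz1 was not measured. The call of Lyz1 therefore rested on 1 probe set.

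Lyz1 and Lyz2 are close copies, and in RefSeq no protein-coding gene lies between them. Their upstream sequences show how near to each other they are before the start. These bases lie outside the annotated transcripts, so they cannot tell which of the genes a lysozyme probe set reads. Each sequence is the 250 bases before the annotated start, from RefSeq on GRCm38.p6, minus strand, with AGGAAG or its reverse complement CTTCCT in capitals. Lyz1 spans chr10:117292869-117293118 and Lyz2 chr10:117282273-117282522.
Lyz1: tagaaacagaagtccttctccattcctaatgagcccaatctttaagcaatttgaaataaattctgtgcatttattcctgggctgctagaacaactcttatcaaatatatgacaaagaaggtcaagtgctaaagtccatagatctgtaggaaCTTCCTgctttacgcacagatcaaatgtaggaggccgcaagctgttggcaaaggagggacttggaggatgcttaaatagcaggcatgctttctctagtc
Lyz2: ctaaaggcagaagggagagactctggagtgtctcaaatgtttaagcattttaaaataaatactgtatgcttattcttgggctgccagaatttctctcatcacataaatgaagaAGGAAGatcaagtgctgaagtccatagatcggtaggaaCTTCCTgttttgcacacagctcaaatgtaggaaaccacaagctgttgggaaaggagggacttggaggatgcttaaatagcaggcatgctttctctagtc
In a global alignment 200 of 252 columns were identical (79.4%, with 4 gap columns), and 92 of the last 100 bases before the start matched position for position. The deposited table holds no probe sequences, so which of the lysozyme transcripts each x probe set reads was not tested.

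The hexamer in capitals holds the GGAA core bound by ETS-family factors, among them PU.1 (Spi1), the factor that specifies myeloid and B cells. Promoter entries were found for 6 of the 10 genes (Lyz1, Lyz2, Fcer1g, Clec7a, Itgax and Cd68). AGGAAG on either strand occurred 2 times upstream of Lyz2 and 1 time each upstream of Lyz1 and Fcer1g, and GAGGAA, which can overlap it, occurred 1 time each upstream of Clec7a and Cd68. Neither was found in the 250 bases before Itgax. At least 1 of these hexamers was present in 5 of the 6 windows, of which those of Lyz1 and Lyz2 are close copies. It was present in 39.2% of all 32851 promoter windows of that length, a share taken without leaving out a chromosome. AGGAAG, with or without GAGGAA, was in 29.5%, and GAGGAA, with or without AGGAAG, was in 23.3%. A match of letters is a description and not a bound site. The window of the adaptor Fcer1g is shown because it is the adaptor with an entry. It spans chr1:171234350-171234599 on the minus strand of GRCm38.p6, with AGGAAG in capitals.
Fcer1g: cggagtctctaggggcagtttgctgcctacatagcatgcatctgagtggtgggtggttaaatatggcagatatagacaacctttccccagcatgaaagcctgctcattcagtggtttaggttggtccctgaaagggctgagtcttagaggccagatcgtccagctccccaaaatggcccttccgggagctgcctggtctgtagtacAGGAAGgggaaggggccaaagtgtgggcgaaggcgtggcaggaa

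Cd14, Clec7a and Cd68 also had lower signals in the exposed sample. Cd14, the lipopolysaccharide co-receptor, read 21.7 in the control sample and 16.1 in the exposed sample, the latter just over the array median, a log2 difference of -0.43 (like-level range -0.57 to 0.59). Clec7a had signals of 63.5 and 54.5, a difference of -0.22 within a range of -0.74 to 0.65. Cd68, a glycoprotein of macrophage lysosomes that many other cells express at a low level, had signals of 44.4 and 30.6, a difference of -0.54 within a range of -0.99 to 0.70. None of these 3 stood apart from genes of similar signal.

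The genes most used to name a cell a macrophage or a dendritic cell read near the array medians. Adgre1, which encodes the F4/80 antigen of mouse macrophages, read 15.2 in the control sample, where it was not measured, and 17.8 in the exposed sample, at least 1.12-fold higher. Itgax, the CD11c chain of dendritic cells, had signals of 19.4 and 17.0 (-0.19, like-level range -0.57 to 0.59). Neither difference exceeded its like-level range, which for Adgre1 ran from -0.22 to 0.25. So near the array medians, setting lower signals to the median caps the difference. The range is therefore narrow and understates how far such genes varied.

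Csf1r, like Adgre1, read higher in the exposed sample, and its probe sets, like those of Lyz1, disagreed. The brightest of its probe sets, 1423593_a_at, read 29.1 in the control and 31.4 in the exposed sample (0.11), and 1419872_at read 24.2 and 25 (0.05). The remaining probe set, 1419873_s_at, read 2.9 in the control sample, where it was not measured, and 34.5 in the exposed sample, at least 2.17-fold higher. All 3 were higher in the exposed sample, but by amounts that did not match, and averaging them gave 0.42. The suffixes s and a mark probes shared by several transcripts or transcript variants.

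**Figure D2:**
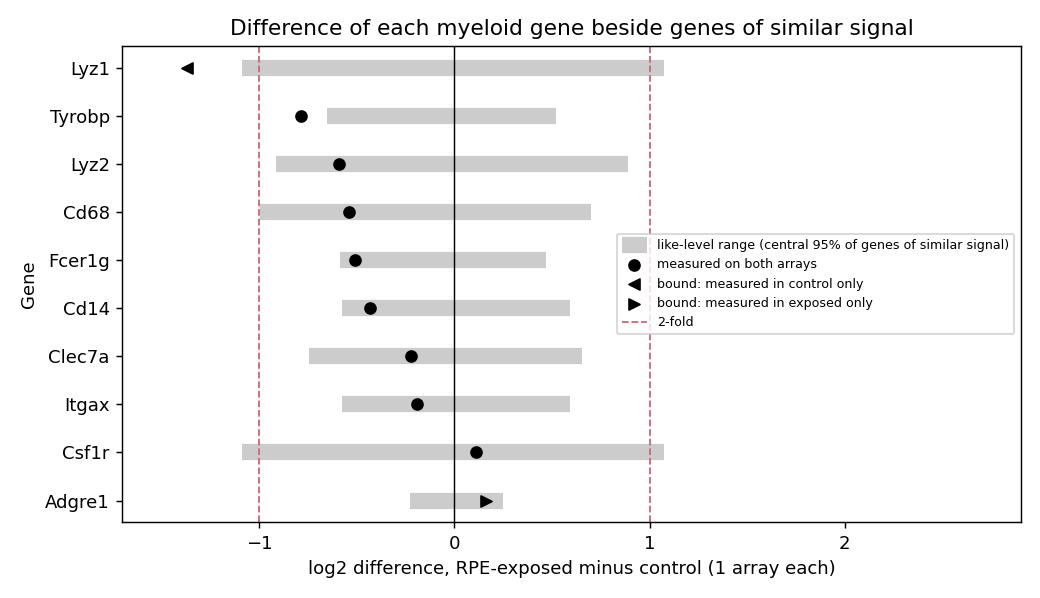
Log2 difference (RPE-exposed minus control) of each of the 10 genes, 1 probe set per gene, beside the central 95% of differences of genes of similar signal (grey bars). Left- and right-pointing triangles are bounds for Lyz1 and Adgre1, and Lyz1 and Tyrobp lie to the left of their bars. For Lyz1 that place followed from its exposed signal being under the array median.

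Across the members 2 of 10 lay under their like-level ranges, Lyz1 and Tyrobp, and none above, beside 2.46% and 2.45% of all compared genes. By probe set, 12 of 14 were measured on 1 array or both, of which 8 were lower in exposed cells and 4 higher, while 51.1% of all such probe sets were lower. A single probe set was at least 2-fold lower and 1 at least 2-fold higher, next to 0.691% and 0.508% of all such probe sets. For scale, probe sets of the same gene measured on both arrays differed among themselves with a pooled SD of 0.29 on the log2 scale at mean signals under 100 (1627 genes) and 0.22 at 100 or more (3140 genes). The differences of Clec7a, Itgax, Csf1r and Adgre1 were smaller than that SD. Probe sets are not replicates of cells or mice. Genes as dim as the members tended slightly downwards as a whole. Of 5373 compared genes with no signal above that of Tyrobp in control cells, 54.6% were lower in exposed cells, with a median of -0.03, and 0.949% were at least 2-fold lower.

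Genes that work with the members were examined as lists, each described by its measured genes and set beside the 51.6% of all genes that were lower. Among receptors that pair with ITAM adaptors, their TREM and paired-receptor relatives, and the relatives of Clec7a, 7 of 7 were lower, with a median of -0.37, and 6 of the 13 on the array were not measured. Of these 7, 2 were measured on the control array only, so their difference could only be negative. The 5 measured on both arrays had a median of -0.32. None of the 7 was 2-fold different. Clec4e (Mincle), an Fcer1g-coupled receptor for mycobacterial glycolipid, had signals of 58.6 and 33.0 (-0.83, lower end of the like-level range -0.80). Hcst (DAP10), another adaptor, which T cells and NK cells also express, had signals of 202.3 and 162.5 (-0.32), and Treml2, a TREM-family receptor of lymphocytes and myeloid cells, gave 238.4 and 233.6 (-0.03).

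Of the Fc receptors, 2 of 3 measured genes were lower and none by 2-fold. Fcgr2b, the inhibitory Fc receptor of B cells and myeloid cells, had signals of 168.2 and 103.1, a difference of -0.71 that lay under its like-level range (lower end -0.59), and the 4 of its probe sets measured on both arrays averaged -0.52 ± 0.22 (SD). Fcgr4, an activating receptor that needs Fcer1g, had signals of 20.6 and 17.4 (-0.24). Fcgr3, another such receptor, was not measured, at 7.9 and 12.5. Fcgr3 is named here after its values were seen.

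In the signalling steps below the ITAM adaptors and Dectin-1, 7 of 8 genes were lower, with a median of -0.39 and none 2-fold different. Malt1, a scaffold protease that lymphocytes use as well, had signals of 819.2 and 636.9 (-0.36, 3 probe sets at -0.42 ± 0.055), Vav1 218.7 and 168.9 (-0.37), and Bcl10 371.2 and 382.8 (0.04), with 2 of 4 Bcl10 probe sets negative. Syk, the kinase recruited by both adaptors, was chosen after its values were seen. It had signals of 96.1 and 58.1 (-0.73), and the 3 of its probe sets measured on both arrays averaged -0.71 ± 0.067. B cells express Syk too.

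The growth-factor receptors and transcription factors of myeloid cells were lower in 7 of 8 genes, with a median of -0.55 and none by 2-fold. Irf8, a transcription factor of dendritic cells, monocytes and B cells, had signals of 1557.2 and 1015.8, a difference of -0.62 under the lower end of its like-level range (-0.36), and 2 probe sets gave -0.72 ± 0.15. Csf2rb, the common beta chain of the GM-CSF, IL-3 and IL-5 receptors, had signals of 102.5 and 70.1 (-0.55), and Cebpb 236.9 and 217.6 (-0.12). Spi1, singled out because its protein binds the GGAA core described above, had signals of 43.1 and 24.9 (-0.79, inside its like-level range, whose lower end was -0.99).

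**Figure D3:**
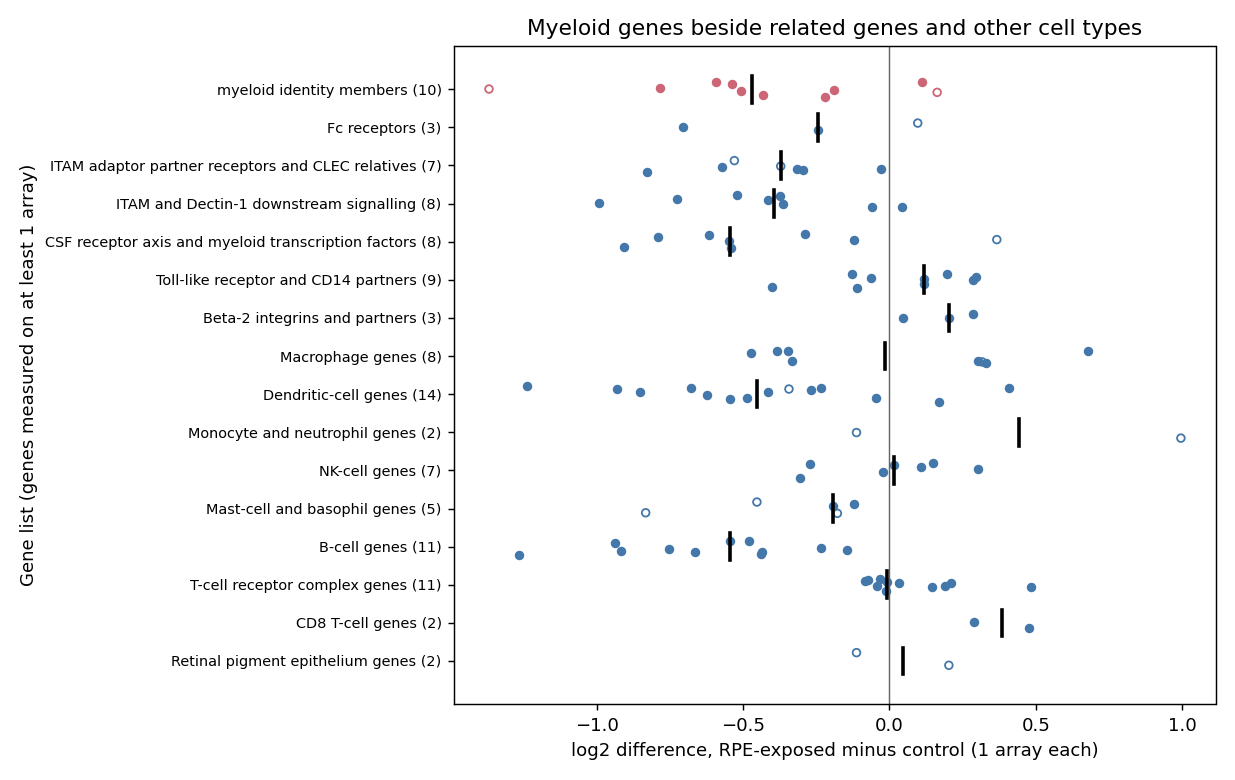
Log2 difference (RPE-exposed minus control) of each measured gene, by list, with the number of genes in brackets and the list's median as a black bar. Filled points were measured on both arrays and open points, which are bounds, on 1. The 10 myeloid genes (top row, red) and the dendritic-cell and B-cell genes lie mostly left of 0, and T-cell receptor complex genes lie around it.

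Partners of Cd14 and of Itgax did not follow. In the Toll-like receptor list 4 of 9 genes were lower and 5 higher, with a median of 0.12. The signals were 513.1 and 557.3 for the adaptor Myd88, 196.5 and 182.1 for Tlr1, and 37.6 and 46.2 for Tlr7. The integrin list had 3 of 3 genes higher and none by 2-fold. Itgb2, the beta chain that pairs with the Itgax chain and is shared by all leukocytes, had signals of 1641.9 and 1694.0 (0.05), Itgal 843.7 and 971.4 (0.20), and Itgb7 193.3 and 235.6 (0.29). These integrins are expressed by T cells.

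The wider macrophage list had no common direction, while the dendritic-cell list was mostly lower. Of 19 macrophage genes on the array 8 were measured, 4 lower and 4 higher, with a median of -0.02 and none 2-fold different. Among the higher genes, 1 was measured on the exposed array only, and the median over the 7 measured on both arrays was -0.33. The complement genes C1qa (1.4 and 0.8), C1qb (9.2 and 2.1) and C1qc (0.4 and 0.6), the scavenger receptor genes Cd163 (2.1 and 4.6) and Marco (0.7 and 1.1), and the engulfment receptor gene Mertk (13.6 and 4.6) were not measured on either array. Ncf1, a subunit of the phagocyte oxidase, had signals of 545.4 and 433.3 (-0.33), whereas the lysosomal protease gene Ctsd gave 473.6 and 594.5 (0.33). Lgals3, a galectin of macrophages and activated T cells, had signals of 472.1 and 755.1, a difference of 0.68 above its like-level range (upper end 0.51). Of the other higher genes, Apoe (20.7 and 25.5, 0.30) was measured on both arrays. Lgals3 and Ctsd are not confined to macrophages, and whether the same holds for the lower genes was not examined.

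Of 18 dendritic-cell genes on the array 14 were measured, and 12 of these were lower, with a median of -0.45. One was at least 2-fold lower, Ccl22, a chemokine of mature dendritic cells that activated lymphocytes can also make, with signals of 311.6 and 132.1 (2.36-fold), beside 0.626% of all compared genes. Of this list 5 of 14 genes lay under their like-level ranges and none above. The definition of the range sets those shares at 2.46% and 2.45% over all compared genes. The subset markers Xcr1 (8.2 and 7.4), Cd209a (9.6 and 2.4), Clec10a (1.7 and 0.8) and Siglech (9.3 and 2.1) were not measured on either array.

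Markers of other cell types that use these genes were measured beside them. The signal summed over the members was 532.5 in the control and 366.6 in the exposed sample. Over measured B-cell genes it was 2334.0 and 1517.5, with 11 of 11 genes lower, a median of -0.54 and 1 gene 2-fold lower, Vpreb3 (64.4 and 26.8). Mast-cell and basophil genes, whose Fc receptor for IgE contains the Fcer1g chain, were lower in 5 of 5, with a median of -0.19 and summed signals of 127.6 and 76.7. Of these 5, 3 were measured on the control array only, so their difference could only be negative. The 2 measured on both arrays had a median of -0.16. Kit, the stem cell factor receptor of mast cells, had signals of 36.0 and 33.1 (-0.12), and the mast-cell carboxypeptidase gene Cpa3 23.1 and 20.2 (-0.19). The alpha chain gene of the IgE receptor, Fcer1a, was not measured (11.5 and 9.6). NK-cell genes were lower in 3 of 7, with a median of 0.02 and summed signals of 5847.9 and 6342.5. Among them were Klrd1 (600.1 and 590.6), Nkg7 (1005.2 and 1016.3) and Gzma (3714.7 and 4122.5), which cytotoxic T cells also express. Of the others, Ncr1 (21.5 and 17.8, -0.27) and Klra8 (31.9 and 25.8, -0.31) were lower, and Klrk1 (0.30) and Eomes (0.11) were higher. The part of B cells, NK cells, basophils or mast cells in the lower adaptor signals was not tested. In bulk samples such as these, fewer cells of a type and less RNA per cell cannot be told apart.

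The T-cell label was borne out by the marker genes on both arrays. T-cell receptor complex genes were lower in 6 of 11 and higher in 5, with a median of -0.01 and none 2-fold different. Cd3d had signals of 3073.4 and 3505.9, Cd2 2329.9 and 2212.2, and the costimulatory receptor gene Cd28 1658.9 and 2319.2 (0.48, above its like-level range, whose upper end was 0.30). The 2 Cd28 probe sets gave 0.24 and 0.48. Cd4 read 287.0 and 271.1 on the brighter of its 2 probe sets (-0.08), and the other gave 0.60. The CD8 genes Cd8a (568.8 and 694.6) and Cd8b1 (706.4 and 983.9) were measured on both arrays, including the one titled as CD4 T cells. The Cd8b1 difference of 0.48 lay above its like-level range (upper end 0.36), and that of Cd8a, 0.29, within its own. Of 12 RPE genes 10 were not measured on either array, among them Rpe65 (5.3 and 2.3), although the exposed sample's tissue field names RPE.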

How the data were processed

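The authors deposited linear intensities, 1 signal per probe set and array, for 45101 probe sets, 64 of them manufacturer's controls. Per the labels' protocols, total RNA was turned into biotin-labelled cRNA. The summarization software is not given in the sources used here, nor are its settings. The mean without the lowest and highest 2% was 100 on each array, so no scaling was added.

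Names came from the platform annotation. Of the non-control probe sets 34945 named 1 gene, 932 several and 9160 none, and none with several names listed a member. All 10 member genes matched RefSeq by gene identifier (GRCm38.p6). The array's build is not named. RefSeq positions served to locate the printed promoter windows and the order of Lyz1 and Lyz2, and none was assigned to a probe set.

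Signals under each array's median were set to it, log2 was taken, and a gene was read from the brightest of its probe sets by mean log2. This median is the floor, and a gene over it is called measured. For a gene measured on 1 array only, the floor in effect fixed the sign of the difference. Counting used a fixed 2-fold rule. The listed members, 15 related lists and rules were chosen with earlier results of these data known. From each list the text names genes at least 2-fold different, or else up to 3 with the highest signal among those measured on both arrays, and otherwise says so or names markers of cell identity. Listed genes without a 1-gene probe set are not analysed here. The steps were tested on simulated data, with changes of more than 2-fold planted only in genes measured on both arrays. That test says little about smaller differences or signals near the floor. Python 3.11.15, numpy 2.4.6, pandas 2.3.3 and matplotlib 3.10.9 were used, and 8 alternatives were run.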

Additional observations from a re-analysis of the deposited data

How the results depend on the processing

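The direction of each member held in every alternative that gave it a value, and 66 of 70 single-gene values moved by less than the probe-set SD of 0.29 and stayed on the same side of 2-fold. Many of these values could not move. For a gene with 1 probe set, without those suffixes and measured on both arrays, several alternatives return the main value unchanged. These are a lower floor, no floor, averaging and leaving out the suffixes x, s and a. The member count at least 2-fold lower was 1 and became 0 with the floor at the 75th percentile, where 2 members (Fcer1g and Tyrobp) were still measured, 0 when probe sets of a gene were averaged, and 0 when those with the suffixes x, s and a were left out. Lyz1 was -2.46 with no floor or a floor at the 25th percentile. Averaging probe sets gave -0.45 for Lyz1 and 0.42 for Csf1r. The members' median ran from -0.55 (75th percentile) to -0.29 (offset of 16 in place of the floor). It was -0.48 after median centring, -0.45 after quantile normalization and -0.43 when Lyz1 was left out. No replicate could be left out, and no paired analysis was possible because each group has 1 array. Signals near the floor limit the precision of Cd14, Adgre1 and Itgax.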

Other observations

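Some listed genes of granulocytes, the other myeloid branch, were also read, chosen after their values were seen. Of 10 monocyte and neutrophil genes on the array, 8 were not measured on either array, among them S100a8 (9.3 and 7.7) and S100a9 (0.9 and 1.7), the calprotectin subunits of neutrophils. Ngp, a neutrophil granule gene, read 8.9 in the control sample and 31.7 in the exposed sample, at least 1.99-fold higher, on 1 probe set. Mcpt8, a protease of basophils, read 28.5 in the control sample and 4.0 in the exposed sample, at least 1.78-fold lower, and Ms4a2, the beta chain of the IgE receptor, had 21.9 and 13.8.

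Among dendritic-cell genes, the costimulatory molecules Cd86, Cd40 and Cd80 were lower on every probe set measured on both arrays. They were named outside the fixed rule, with their values seen. Of the 14 measured genes in that list, 2 were higher, Batf3 (0.41) and Bst2 (0.17). The 2 probe sets of Cd86 gave -1.14 ± 0.29 (SD), the 3 of Cd40 -0.76 ± 0.23, and the 2 of Cd80 -0.34 ± 0.21. Activated B cells express these genes as well, and B-cell genes were lower in 11 of 11, but their part in the lower Cd86, Cd40 and Cd80 signals was not tested.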
